A study of Drosophila melanogaster with 8 samples.

Results

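The genes described here are 42 Drosophila genes that act at the endoplasmic reticulum (ER) in the secretory pathway. They were listed by name, with earlier results of these data known, and a gene was kept when the array's probe annotation gave a probe set that symbol and no other. Of the 42, 35 had such a probe set, 36 probe sets in all because Ire1 had 2, out of 11982 genes named this way and 18769 probe sets on the array that are not controls. OstStt3 was found under its current symbol, Stt3B. SrpRbeta, SsRbeta, Calr, Ost48, Sar1, Sec23 and Xbp1 had none listed under that symbol alone and are not analysed here.

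RNA was measured on 8 Affymetrix arrays of organs from 4-day-old mated adult females of Drosophila melanogaster, 2 arrays per group. The 4 groups were spermathecae of Hr39(04443) mutant females, spermathecae of wild-type females, lower reproductive tract without spermathecae of mutant females, and the same tract of wild-type females. The nuclear receptor Hr39 belongs to the same family as SF-1 of mammals, and the series asks what it does in the female reproductive tract. The labels name no wild-type strain, so strain background and genotype cannot be told apart. They call array 2 of each group a duplicate without saying whether it came from other animals, so p-values measure the spread between these arrays, which may be technical.

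Spermathecae are sperm storage organs whose glandular cells secrete proteins into a cuticle-lined lumen, and the lower tract holds much visceral muscle. A secreted protein is recognised as it leaves the ribosome by the signal recognition particle, is threaded into the ER through the Sec61 channel, loses its signal peptide, receives N-glycans and is folded by chaperones and oxidoreductases. COPII vesicles then carry it towards the Golgi, COPI vesicles return escaped residents, and the unfolded protein response adjusts the capacity of the ER.

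Values are array signals (MAS5 intensity, linear, in arbitrary units), and array 1 of a group comes before array 2. Differences are on the scale of log2(signal + 4), with a standard error (SE), and a fold is 2 to the power of that difference. A difference was called at an adjusted p below 0.05 (limma, Benjamini-Hochberg over the 10113 probe sets kept). All 36 probe sets were at or above the array's own median on all 8 arrays, so no member entered through only 1 group. Signals of different probe sets depend on their probes, so those of different members were not compared with each other. Sums over marker probe sets, given below, are set mostly by the brightest ones and do not measure the amount of a cell type.

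Over all probe sets, arrays of the same group correlated at 0.957 to 0.968 and arrays of other groups at 0.868 to 0.957. The ratio of 3' to 5' actin signal, a sign of RNA integrity, was 7.09 on wild-type spermathecae array 1 and 1.34 to 2.14 on the other 7. The same ratio for GAPDH was 5.87 and 2.66 on wild-type spermathecae arrays 1 and 2, and 3.81 and 4.05 on the mutant ones. On the lower tract arrays it was 2.46 to 2.88. Probe set 1630002_s_at of Hr39 averaged 465 ± 17.8 in mutant spermathecae and 773 ± 67.5 in wild-type spermathecae (SD, n = 2 each). Its log2 difference was -0.73 in spermathecae (adjusted p 0.0351) and -0.345 in the lower tract, where it did not pass (adjusted p 0.368). The 3 further probe sets of the gene did not pass in either organ. Of 9 markers of spermathecal secretory cells, 8 were higher in spermathecae than in lower tract in both genotypes and CG13318 was lower, and all 16 muscle probe sets tested were lower in both. Of 10 hemocyte probe sets, 1 was higher and 9 were lower in the mutant, and 1 was higher and 8 were lower in the wild type. Of 10 fat body probe sets, 2 were higher and 0 lower in the mutant (median 0.45), against 0 higher and 6 lower in the wild type (median -0.88), and 5 of the 10 passed in the test of the difference between the genotypes' organ differences. Of 4 germline probe sets, 0 passed in the mutant and 2 were lower in the wild type. The mean log2(signal + 4) of all 12 germline probe sets was 7.20 on wild-type lower tract array 1 and 4.52 on array 2. In mutant lower tract it was 3.68 and 4.72, so the high germline signal was on 1 wild-type array. Of 4 neuron probe sets, 1 was higher and 1 lower in the mutant, and of 4 eggshell probe sets 1 was higher there, while 0 of either passed in the wild type. The summed signal of the secretory-cell markers was 97400 and 128900 in mutant spermathecae, 132600 and 96900 in wild-type spermathecae, 8751 and 3087 in mutant lower tract, and 4719 and 2519 in wild-type lower tract. CG13318 gave 3044 and 1987 of these sums in mutant lower tract, and 2674 and 2249 in wild-type lower tract. The 9 markers had a median log2(signal + 4) of 9.37 and 6.13 in mutant lower tract. In wild-type lower tract that median was 7.25 and 4.01, so duplicate arrays differed in these markers. The part of tissue makeup in the results below was not tested.

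The secretory pathway genes were higher in the spermathecae than in the lower tract in both genotypes, at every step from signal recognition to COPI transport. In the mutant, 32 of the 36 probe sets were higher and 1 was lower, with a median log2 difference of 1.73 (3.32-fold) against 0.14 over all probe sets tested. In the wild type, 32 were higher and 0 lower, with a median of 1.61 (3.06-fold) against 0.07. Over all probe sets, 24.7% were called higher and 21.5% lower in the mutant, and 22.2% higher and 21.5% lower in the wild type. The 2 comparisons share no array, and 31 probe sets were higher in both, 96.9% of those higher in each genotype; over all probe sets the shared share was 69.1% of the mutant and 77% of the wild-type calls. In whole organs, more secretory cells and more RNA per cell cannot be told apart.

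**Figure D1:**
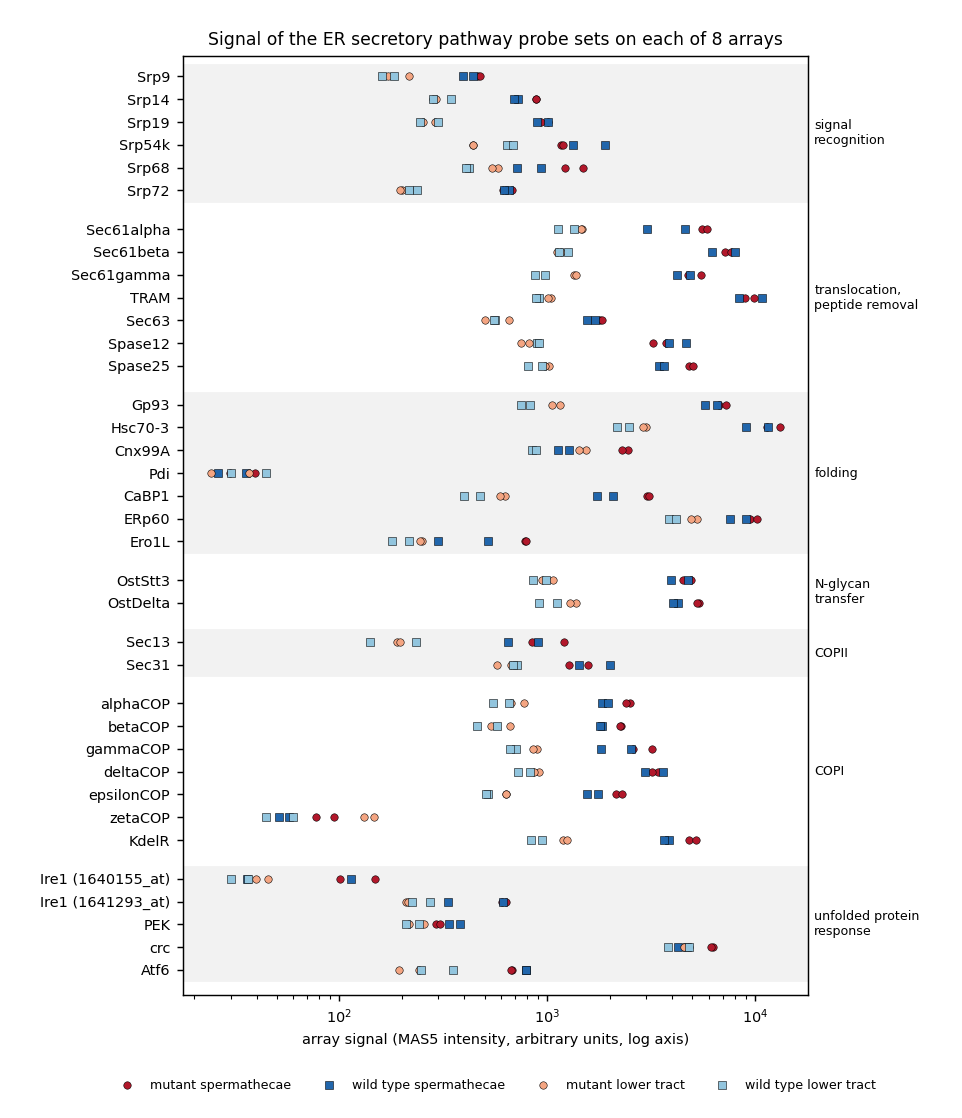
Signal of each of the 36 probe sets on the 8 arrays (log axis, arbitrary units), grouped by step. Circles are mutant and squares wild type, dark symbols are spermathecae and light symbols lower tract. For most rows the dark symbols lie to the right of the light ones, while the arrays of Pdi, crc, zetaCOP and Ire1 1640155_at overlap between the organs in the wild type.

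Signal recognition was represented by 6 subunits of the particle, all 6 higher in spermathecae in both genotypes, with a median log2 difference of 1.51 in the mutant and 1.25 in the wild type. Srp19, which organises assembly of the particle's RNA, had signals of 1004 and 938 in mutant spermathecae, 891 and 1013 in wild-type spermathecae, 254 and 288 in mutant lower tract and 245 and 297 in wild-type lower tract. The organs did not overlap, and the difference was 1.83 (SE 0.16, adjusted p 1.11e-05) in the mutant and 1.80 (SE 0.16, adjusted p 1.33e-05) in the wild type. Srp14, which with Srp9 slows elongation of the bound ribosome, was at 884 and 883 in mutant spermathecae, 724 and 692 in wild-type spermathecae, 283 and 293 in mutant lower tract and 346 and 283 in wild-type lower tract. Its arrays separated the organs without overlap, by 1.60 in the mutant and 1.17 in the wild type, and Srp9 differed by 1.27 and 1.25 in the same order of genotypes. Srp54k, the GTPase that binds the signal sequence, gave signals of 1162 and 1188 in mutant spermathecae, 1329 and 1899 in wild-type spermathecae, 439.8 and 437 in mutant lower tract and 644 and 682 in wild-type lower tract. It was 2.66-fold higher in mutant and 2.39-fold higher in wild-type spermathecae, each against the lower tract of that genotype, and it was the one subunit whose mean was lower in the mutant in both organs. Srp68, which forms a heterodimer with Srp72, had signals of 1479 and 1215 in mutant spermathecae, 713 and 937 in wild-type spermathecae, 577 and 542 in mutant lower tract and 419 and 407 in wild-type lower tract. Its organ difference was 1.25 in the mutant and 0.98 in the wild type, and that of Srp72 was 1.68 and 1.48.

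Translocation and signal peptide removal showed the highest step median in both genotypes among the steps with more than 2 probe sets, 2.14 in the mutant and 2.23 in the wild type, and all 7 probe sets were higher in spermathecae. TRAM, which helps nascent chains enter the channel, was at 8905 and 9870 in mutant spermathecae, 10760 and 8394 in wild-type spermathecae, 1045 and 1012 in mutant lower tract and 917 and 880.1 in wild-type lower tract. The spermathecal arrays of both genotypes lay far above all lower tract arrays, and TRAM had the largest organ difference of the 36 probe sets, 9.09-fold in the mutant (3.18, SE 0.16, adjusted p 2.43e-07) and 10.5-fold in the wild type (3.40, SE 0.16, adjusted p 1.6e-07). Its probe set is 1 of 12 among the 36, with those of Cnx99A, Ero1L, Hsc70-3 and KdelR, whose suffix marks probes shared between transcripts or genes.

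The 3 subunits of the Sec61 channel were all higher in spermathecae. Sec61beta differed by 2.70 in the mutant and 2.55 in the wild type, and Sec61alpha, the pore-forming subunit, by 1.97 and 1.59. Sec61gamma, the small subunit that clamps the pore, gave signals of 4741 and 5503 in mutant spermathecae, 4859 and 4231 in wild-type spermathecae, 1352 and 1381 in mutant lower tract and 981 and 878 in wild-type lower tract. Its organ difference was 1.90 in the mutant and 2.28 in the wild type. Sec63, which recruits the chaperone BiP to the channel, differed by 1.65 and 1.54.

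The 2 measured subunits of signal peptidase, the enzyme that cuts off signal peptides, were also higher in spermathecae. Spase12 had signals of 3237 and 3714 in mutant spermathecae, 4677 and 3848 in wild-type spermathecae, 747 and 817 in mutant lower tract and 893 and 913 in wild-type lower tract. Its organ difference was 2.14 in the mutant and 2.23 in the wild type. Spase25 was at 4805 and 5026 in mutant spermathecae, 3433 and 3664 in wild-type spermathecae, 1021 and 972 in mutant lower tract and 945 and 807 in wild-type lower tract. The organs did not overlap, and the difference was 2.30 in the mutant and 2.02 in the wild type.

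Folding genes were more uneven: 6 of 7 probe sets were higher in spermathecae in both genotypes, but the wild-type differences ran from -0.23 to 2.96. Gp93, the ER member of the Hsp90 chaperones, gave signals of 6730 and 7256 in mutant spermathecae, 6582 and 5721 in wild-type spermathecae, 1156 and 1060 in mutant lower tract and 827 and 748 in wild-type lower tract. The organs were widely separated, 6.29-fold in the mutant (2.65, SE 0.14, adjusted p 4.27e-07) and 7.77-fold in the wild type (2.96, SE 0.14, adjusted p 2.14e-07). Hsc70-3, the ER Hsp70 known in mammals as BiP, was 4.14-fold higher in mutant and 4.4-fold higher in wild-type spermathecae. CaBP1, an oxidoreductase of the protein disulfide isomerase family, had signals of 3011 and 3086 in mutant spermathecae, 1730 and 2075 in wild-type spermathecae, 626 and 591 in mutant lower tract and 475 and 398 in wild-type lower tract. It was 4.99-fold higher in mutant spermathecae and 4.33-fold higher in wild-type spermathecae, against lower tract.

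ERp60, another disulfide isomerase, differed less, by 0.95 in the mutant (0.61 with quantile normalization) and 1.04 in the wild type. Ero1L, the oxidase that recharges disulfide isomerases, was at 786 and 793 in mutant spermathecae, 297 and 521 in wild-type spermathecae, 251 and 244 in mutant lower tract and 216 and 179 in wild-type lower tract. Its organ difference was 1.66 (SE 0.24, adjusted p 0.000317) in the mutant and 0.99 (SE 0.24, adjusted p 0.00774) in the wild type, and the wild-type spermathecal arrays lay further apart than those of the other groups. The wild-type organ difference of Ero1L was 1.39 without wild-type spermathecae array 1 and 0.59 without array 2, and both passed the test. Cnx99A, a calnexin that holds glycoproteins in the ER until they fold, gave signals of 2438 and 2286 in mutant spermathecae, 1276 and 1131 in wild-type spermathecae, 1530 and 1423 in mutant lower tract and 848 and 886 in wild-type lower tract. Its organ difference was the smallest among the called folding genes, 0.68 (SE 0.14, adjusted p 0.00277) in the mutant and 0.47 (SE 0.14, adjusted p 0.0198) in the wild type. The wild-type call of Cnx99A was lost (adjusted p up to 0.0781) without wild-type spermathecae array 1, without either wild-type lower tract array, with no variance trend and with only the arrays compared.

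The probe set for Pdi, the disulfide isomerase after which the family is named, had signals of 29.9 and 39.1 in mutant spermathecae, 35.6 and 26.2 in wild-type spermathecae, 24.2 and 36.9 in mutant lower tract and 30.1 and 44.4 in wild-type lower tract. These signals overlapped between all groups and lay close to the array medians of 17.7 to 22.6, so an organ difference was not detectable with this probe set: 0.17 in the mutant (95% interval -0.62 to 0.96) and -0.23 in the wild type (95% interval -1.02 to 0.56). Detection calls were not used here.

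N-glycan transfer was represented by 2 subunits of the oligosaccharyltransferase, both higher in spermathecae. OstStt3, a catalytic subunit, was at 4511 and 4895 in mutant spermathecae, 4760 and 3940 in wild-type spermathecae, 941 and 1067 in mutant lower tract and 853 and 982 in wild-type lower tract. All 4 spermathecal arrays exceeded all 4 lower tract arrays, with a difference of 2.23 (SE 0.16, adjusted p 2.33e-06) in the mutant and 2.24 (SE 0.16, adjusted p 2.42e-06) in the wild type. OstDelta, an accessory subunit, gave signals of 5368 and 5228 in mutant spermathecae, 4243 and 4016 in wild-type spermathecae, 1382 and 1285 in mutant lower tract and 1110 and 910.3 in wild-type lower tract. It differed by 1.99 in the mutant and 2.03 in the wild type.

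COPII transport was represented by the outer coat pair Sec13 and Sec31, both higher in spermathecae. Sec13 had signals of 841 and 1206 in mutant spermathecae, 647 and 905 in wild-type spermathecae, 189.9 and 196 in mutant lower tract and 140.4 and 233 in wild-type lower tract. The organs did not overlap, and the difference was 2.36 (SE 0.27, adjusted p 6.36e-05) in the mutant and 2.06 (SE 0.27, adjusted p 0.000172) in the wild type. Sec31 was at 1571 and 1280 in mutant spermathecae, 1995 and 1428 in wild-type spermathecae, 670.2 and 573 in mutant lower tract and 718 and 684 in wild-type lower tract. It differed by 1.19 in the mutant and 1.26 in the wild type, less than its partner.

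Among the COPI genes, the alpha, beta, gamma, delta and epsilon subunits of the coat rose together in spermathecae, by 1.71 to 1.91 in the mutant and by 1.64 to 2.07 in the wild type, and all passed the test. KdelR, the receptor that returns escaped chaperones to the ER, gave signals of 4834 and 5192 in mutant spermathecae, 3867 and 3667 in wild-type spermathecae, 1192 and 1239 in mutant lower tract and 836 and 946 in wild-type lower tract. It was 4.11-fold higher in mutant and 4.22-fold higher in wild-type spermathecae, against lower tract. EpsilonCOP had signals of 2135 and 2284 in mutant spermathecae, 1753 and 1554 in wild-type spermathecae, 636 and 637 in mutant lower tract and 519 and 508 in wild-type lower tract. Its arrays did not overlap between the organs, 1.79 in the mutant and 1.68 in the wild type.

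The probe set for zetaCOP, the small subunit of the coat, did not follow those of the other subunits. Its signals were low: array medians were 17.7 to 22.6, and no group had both arrays at or above their 75th percentile (the stricter filter). It was at 77.3 and 94.2 in mutant spermathecae, 51.5 and 57.0 in wild-type spermathecae, 132 and 147 in mutant lower tract and 44.5 and 60.1 in wild-type lower tract. The mutant lower tract arrays were the highest, and in the wild type the organs overlapped. The organ difference was -0.68 (SE 0.25, adjusted p 0.0456) in the mutant, the only fall among the 36 probe sets, and 0.06 (SE 0.25, adjusted p 0.861) in the wild type. The mutant call was lost (adjusted p up to 0.216) when any 1 of the 4 mutant arrays was left out, with quantile normalization, with median centring and with no filter.

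The unfolded protein response genes had the lowest step median in both organ comparisons, 1.44 in the mutant and 0.86 in the wild type, with 3 of 5 probe sets higher in each genotype. Atf6, a membrane-bound transcription factor released when unfolded protein accumulates, gave signals of 679 and 671 in mutant spermathecae, 789 and 787 in wild-type spermathecae, 193 and 240.5 in mutant lower tract and 247 and 351 in wild-type lower tract. Its organ difference was 1.63 (SE 0.19, adjusted p 8.35e-05) in the mutant and 1.41 (SE 0.19, adjusted p 0.000243) in the wild type. PEK, the kinase that slows translation under ER stress, had signals of 292 and 306 in mutant spermathecae, 379 and 336 in wild-type spermathecae, 216 and 254 in mutant lower tract and 242 and 209 in wild-type lower tract. It was higher in wild-type spermathecae by 0.66 (SE 0.17, adjusted p 0.0112), a call lost without wild-type lower tract array 2 (adjusted p 0.0606), and the mutant difference of 0.35 did not pass the test (adjusted p 0.122).

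Crc, the fly counterpart of mammalian ATF4, was at 6279 and 6168 in mutant spermathecae, 4259 and 4729 in wild-type spermathecae, 4808 and 4570 in mutant lower tract and 3803 and 4787 in wild-type lower tract. Its organ difference did not pass the test in either genotype, 0.41 in the mutant (95% interval 0.06 to 0.76) and 0.07 in the wild type (95% interval -0.28 to 0.43). Ire1, the sensor whose nuclease splices Xbp1 RNA, was read by 2 probe sets. Probe set 1641293_at gave signals of 606 and 633 in mutant spermathecae, 333 and 610.4 in wild-type spermathecae, 208 and 214 in mutant lower tract and 273 and 223 in wild-type lower tract, and was higher in mutant (1.53) and wild-type spermathecae (0.86). Probe set 1640155_at had signals of 100.3 and 149 in mutant spermathecae, 35.9 and 113 in wild-type spermathecae, 45.3 and 39.7 in mutant lower tract and 30.1 and 36.3 in wild-type lower tract, and passed the test in the mutant (1.44) but not in the wild type (0.88, adjusted p 0.139). Both probe sets were lower on wild-type spermathecae array 1 than on array 2. The wild-type call of 1641293_at was lost without wild-type spermathecae array 2 or wild-type lower tract array 2, with no variance trend and with only the arrays compared (adjusted p up to 0.104). Its wild-type difference was 1.29 without wild-type spermathecae array 1 and 0.43 without array 2. The mutant call of 1640155_at was lost without mutant spermathecae array 2 or either mutant lower tract array (adjusted p up to 0.15).

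**Figure D2:**
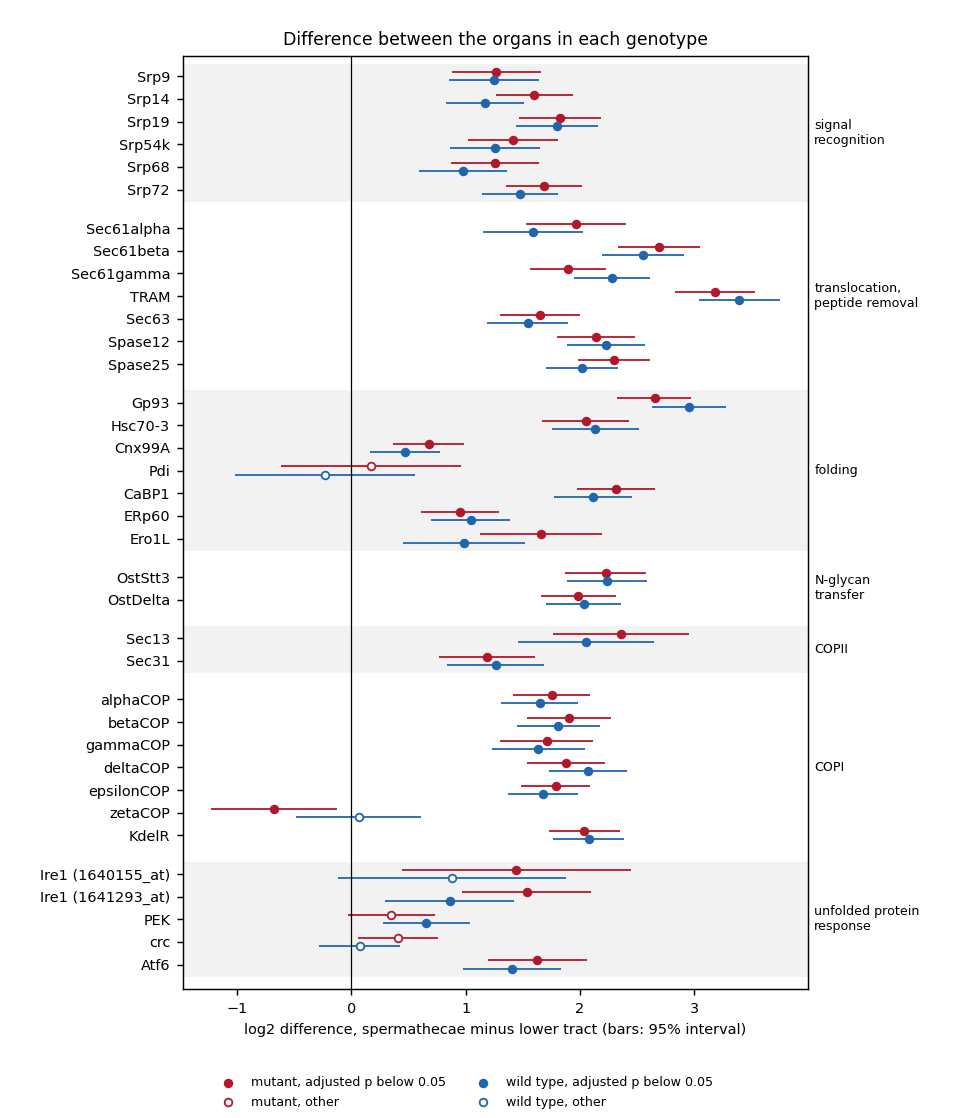
Log2 difference between spermathecae and lower tract for each probe set, in the mutant (red, upper) and the wild type (blue, lower), with 95% intervals from limma; filled symbols passed an adjusted p of 0.05. TRAM lies furthest to the right in both genotypes, followed by Sec61beta in the mutant and Gp93 in the wild type. Nearest to or below 0 lie Pdi, zetaCOP and crc in both, with PEK in the mutant and Cnx99A in the wild type.

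Further genes of the pathway, 62 genes with 63 probe sets of which 61 were tested, were read as a comparison list. In the mutant, 47 were higher in spermathecae and 0 lower (median 1.48), against 24.7% and 21.5% of all probe sets tested. In the wild type, 47 were higher and 1 lower (median 1.26), against 22.2% and 21.5%. The folding factor Fkbp14 was among the most different, by 3.45 in the mutant and 3.14 in the wild type, followed in the folding list by Manf, by 2.83 and 2.47. Further COPII transport genes, among them cargo receptors and tethers, were higher in 15 of 16 probe sets in each genotype, with medians of 1.85 in the mutant and 1.72 in the wild type. Genes of ER-associated degradation, which exports misfolded protein for destruction, had lower medians, 0.96 with 5 of 9 higher in the mutant and 0.77 with 6 of 9 higher and 1 lower in the wild type. The lower one was Npl4, a cofactor of the extraction ATPase, with a wild-type difference of -1.02. PPP1R15 and Gcn2, which were only grouped here with the unfolded protein response, did not pass the test in either genotype.

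**Figure D3:**
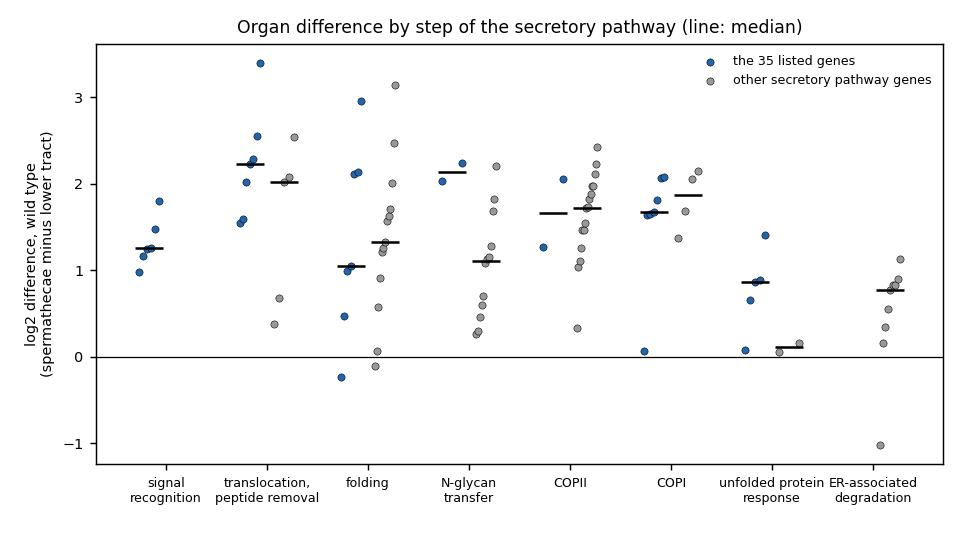
Wild-type log2 difference between spermathecae and lower tract by step of the pathway, for the 35 listed genes (blue) and the other secretory pathway genes (grey); each point is a probe set and the line is the median. The listed translocation genes have a median of 2.23, and the unfolded protein response has the lowest listed median, 0.86.

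The median genotype difference of the members was smaller than their median organ difference. Of the members called between genotypes, Cnx99A in both organs and zetaCOP in the lower tract had genotype differences above their organ differences in both genotypes. In spermathecae, 4 of 36 probe sets were higher in the mutant and 0 lower, where 4.04% of all probe sets were called higher and 3.89% lower. The median difference of the members was 0.29 (1.22-fold) against 0.02 over all probe sets, and 30 of 36 were positive, against 51.9% of all probe sets. In the lower tract, 2 were higher in the mutant and 0 lower, against 2.47% and 3.33% of all probe sets. The median there was 0.20 (1.15-fold) against -0.003, with 27 of 36 positive, against 49.6% of all probe sets. At an unadjusted p below 0.05 (limma), 14 of 36 members differed in spermathecae, against 21.5% of all probe sets, and 11 of 36 in the lower tract, against 17.4%. Those with a negative difference were Srp54k in both organs and Atf6 in the lower tract.

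The 4 genes that were higher in mutant spermathecae were 3 folding genes and 1 subunit of the signal recognition particle. Cnx99A, with values given above, was 1.96-fold higher (0.97, SE 0.14, adjusted p 0.00224), and its mutant arrays lay above both wild-type arrays. CaBP1 was 1.61-fold higher (0.69, SE 0.15, adjusted p 0.0245), also without overlap. Ero1L was about 2-fold higher (0.998, SE 0.24, adjusted p 0.0328). Without wild-type spermathecae array 1 the difference of Ero1L was 0.60 (adjusted p 0.108), and without array 2 it was 1.399 (adjusted p 0.00258). Srp68 was 1.64-fold higher (0.71, SE 0.17, adjusted p 0.0344).

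In the same comparison 3 of 16 muscle probe sets were higher and 1 lower, 1 of 10 fat body probe sets was higher, 2 of 10 hemocyte probe sets were lower and 1 of 9 secretory-cell markers was lower, and 0 germline, neuron or eggshell probe sets passed. Muscle markers summed to 7300 and 7248 in mutant spermathecae and to 6213 and 6280 in wild-type spermathecae. Mf probe set 1635372_a_at gave 1966 and 2187 of the mutant sums and 319 and 268 of the wild-type sums. Of the 16 muscle differences, 6 were positive and 10 negative (median -0.07). Hemocyte markers summed to 2374 and 2115 in the mutant and 3145 and 2819 in the wild type. Most of these sums came from srp, with 1966 and 1608 in the mutant and 2332 and 2235 in the wild type. Unlike the other hemocyte markers, srp was higher in spermathecae than in lower tract. Fat body markers summed to 42660 and 42090 in mutant spermathecae and to 54930 and 32370 in wild-type spermathecae. The part of these markers in the calls was not tested.

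The alternative without probe sets of shared probes left out Cnx99A and Ero1L, so it did not test their calls. Only Cnx99A kept its call in spermathecae under the 18 alternatives run for it. Where no array was left out, its adjusted p was 0.000916 to 0.0208. CaBP1, Ero1L and Srp68 each lost theirs without mutant spermathecae array 1 or 2, without wild-type spermathecae array 1 and without mutant lower tract array 1 or 2, which leaves 1 member called higher in each of those fits. All 3 calls were also lost with no variance trend and with only the arrays compared, those of Ero1L and Srp68 with no filter, and that of Srp68 with median centring. Without wild-type spermathecae array 2, 7 probe sets were higher, with Sec61alpha and both Ire1 probe sets added, and this leaves array 1, the one with the high actin ratio, as the wild-type value. Without wild-type spermathecae array 1, Srp54k was lower in the mutant, with a difference of -0.69 (adjusted p 0.0303). The part of RNA integrity in these calls was not tested.

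In the lower tract, the 2 genes higher in the mutant were Cnx99A and zetaCOP. Cnx99A was 1.7-fold higher (0.77, SE 0.14, adjusted p 0.00989), and the genotypes did not overlap. ZetaCOP was 2.57-fold higher (1.36, SE 0.25, adjusted p 0.01), with signals of 132 and 147 in the mutant against 44.5 and 60.1 in the wild type, the largest genotype difference among the members. At these low signals its difference ran from 1.15 to 1.58 over the alternatives. Neither call held (0 members higher) without mutant lower tract array 1, mutant lower tract array 2 or wild-type lower tract array 1, and that of Cnx99A was also lost with no variance trend. Without wild-type spermathecae array 1 or 2, 4 members were higher, with Sec61gamma and Gp93 added, and Srp54k was lower, with a difference of -0.59 (adjusted p 0.0204 and 0.021). Germline markers summed to 275 and 539 in mutant lower tract and to 3639 and 465 in wild-type lower tract. In this comparison 4 of 10 fat body probe sets were lower in the mutant. Higher in the mutant were 2 of 10 hemocyte, 1 of 16 muscle and 1 of 4 neuron probe sets. All 9 secretory-cell markers had a positive difference (median 1.51), but 0 passed, and 0 germline or eggshell probe sets passed. The part of these markers in the calls was not tested.

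**Figure D4:**
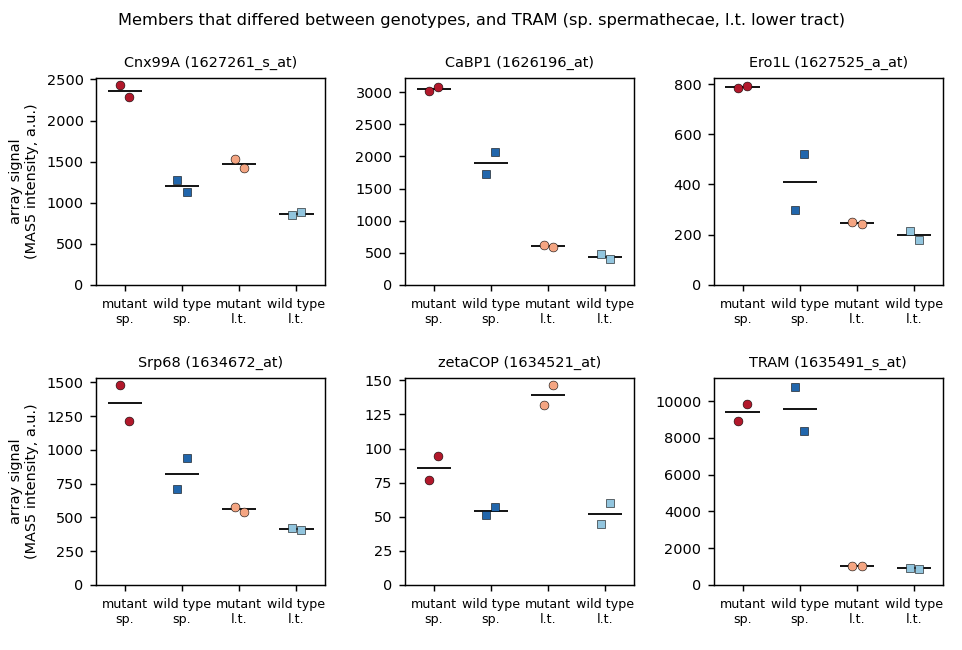
Array signals (linear axes from 0) of the 5 genes that differed between genotypes in an organ, and of TRAM; points are arrays and lines are group means. Cnx99A is higher in the mutant in both organs, zetaCOP is highest in mutant lower tract, and TRAM differs far more between the organs than between the genotypes.

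By step, the median genotype difference in spermathecae and in the lower tract was 0.10 and -0.06 for signal recognition, and 0.15 and 0.19 for translocation. For folding it was 0.27 and 0.35, and for N-glycan transfer 0.24 and 0.27. COPI genes had 0.41 and 0.31 with all 7 probe sets positive in both organs, COPII genes 0.07 and -0.04, and the unfolded protein response 0.46 and 0.05. These medians are descriptions, since most members did not pass the test. In spermathecae, the unfolded protein response median was the value of Ire1 1641293_at, with 3 of the 5 probe sets positive and 2 negative. Ire1 supplied 2 of the 5. The step's mean log2 value was 8.80 on wild-type spermathecae array 1, which had the high actin ratio, and 9.28 on array 2. In mutant spermathecae it was 9.24 and 9.37. The part of RNA integrity in this median was not tested.

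Further members, which did not pass the test, are given as values. In spermathecae, Spase25 differed by 0.47 (adjusted p 0.0772), Sec61alpha by 0.62 (0.0923), epsilonCOP by 0.42 (0.101) and crc by 0.47 (0.111), with the mutant arrays above the wild-type arrays for each. OstDelta differed by 0.36 there, and Sec13, whose arrays overlapped, by 0.40. The most negative values were -0.43 for Srp54k, -0.29 for Spase12, -0.25 for PEK and -0.25 for Sec31. In the lower tract, Sec61gamma differed by 0.56 (adjusted p 0.0633), Gp93 by 0.49 (0.0933) and KdelR by 0.45 (0.107). Srp54k had -0.59 (0.0947) and Atf6 -0.44 (0.268) there, the 2 most negative members.

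TRAM, the gene with the largest organ difference, had a genotype difference of -0.02 in spermathecae (95% interval -0.37 to 0.33) and 0.19 in the lower tract (95% interval -0.16 to 0.55). For Sec61beta the values were 0.07 (-0.29 to 0.42) and -0.08 (-0.43 to 0.28), and for deltaCOP 0.01 (-0.33 to 0.35) and 0.20 (-0.14 to 0.54). The smallest genotype difference called among the members was 0.69 (CaBP1 in spermathecae), and differences of 0.62 (Sec61alpha, adjusted p 0.0923) and 0.88 (Ire1 1640155_at, adjusted p 0.294) there did not pass.

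**Figure D5:**
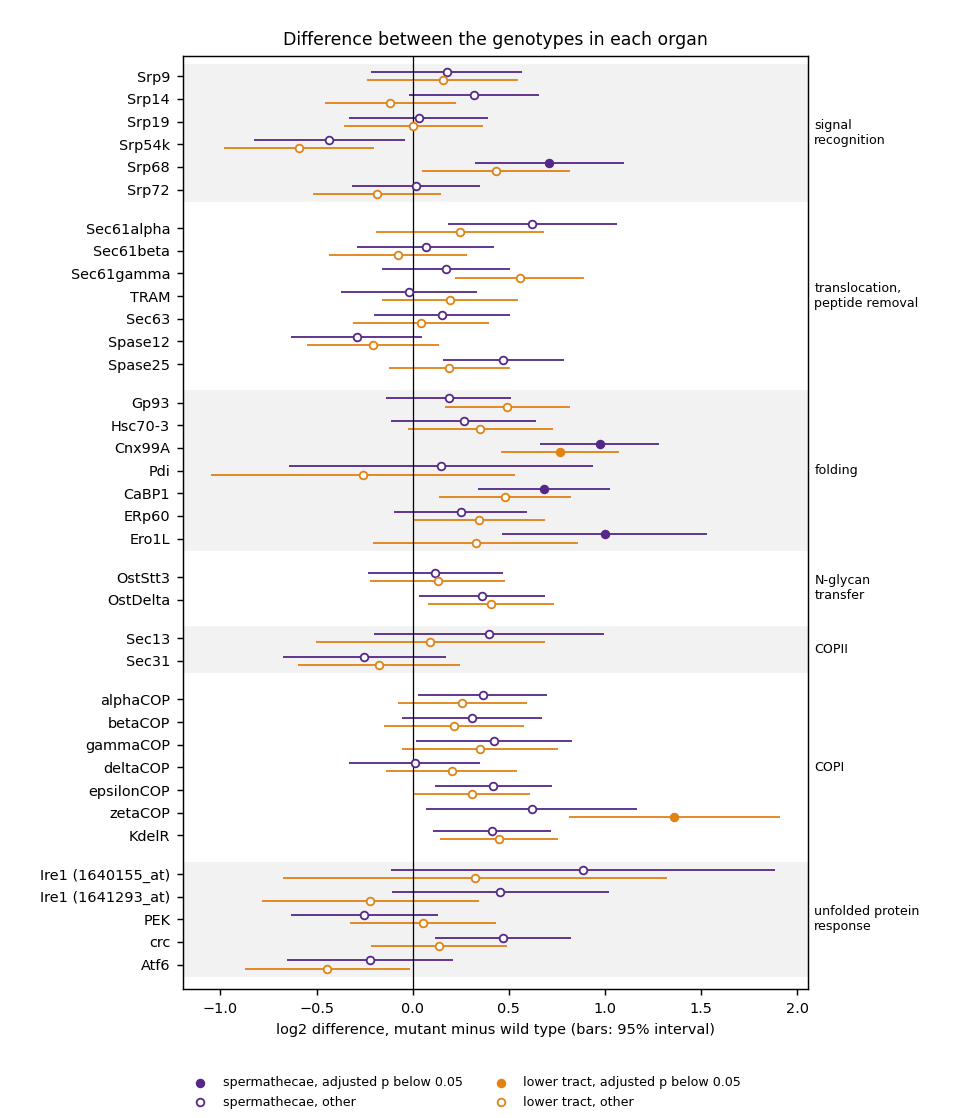
Log2 difference between mutant and wild type for each probe set, in spermathecae (purple, upper) and lower tract (orange, lower), with 95% intervals from limma; filled symbols passed an adjusted p of 0.05. Cnx99A passed in both organs, CaBP1, Ero1L and Srp68 in spermathecae, and zetaCOP in lower tract.

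Of the 61 other secretory pathway probe sets, 9 were higher in mutant spermathecae and 0 lower (median 0.30). The shares over all probe sets there were 4.04% and 3.89%. In mutant lower tract 5 were higher and 0 lower (median 0.18), against 2.47% and 3.33% of all probe sets. In both organs the higher ones included Fkbp14, an ER prolyl isomerase. Its signals were 16630 and 20880 in mutant spermathecae, 9272 and 8248 in wild-type spermathecae, 1729 and 1676 in mutant lower tract and 879 and 1109 in wild-type lower tract. It differed by 1.09 in spermathecae (adjusted p 0.00423) and 0.78 in the lower tract (0.0284). Alg2, a mannosyltransferase that builds the N-glycan precursor, had signals of 739 and 655 in mutant spermathecae, 289 and 353 in wild-type spermathecae, 249 and 293 in mutant lower tract and 142 and 118 in wild-type lower tract. It differed by 1.11 (adjusted p 0.00509) and 1.04 (0.00932) in the same order of organs. The cargo receptor ergic53 passed in both organs with probe set 1624560_at, by 0.61 and 1.06, and its other probe set passed in the lower tract, by 0.68. The remaining calls were GCS2beta, shv, Manf, sip3, Npl4 and CG9175 (the gene listed as Sec12) in spermathecae, by 0.56 to 1.11, and Grp170 in the lower tract, by 0.57.

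These counts too depended on single arrays. In spermathecae 1 was left without mutant array 2, 2 without mutant array 1, 3 without wild-type array 1 and 5 without either mutant lower tract array. In the lower tract 0 were left without either mutant array, 2 without wild-type array 1, and 3 without wild-type array 2 or either mutant spermathecae array.

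Whether a genotype difference was larger in one organ than in the other was asked with the interaction term. No member passed (0 higher and 0 lower, against 1.76% and 1.29% of all probe sets; smallest adjusted p 0.382), and 0 of the 36 had an unadjusted p below 0.05, against 14% of all probe sets. The median was 0.11, against 0.04 over all probe sets. ZetaCOP had the largest value, -0.74 (95% interval -1.52 to 0.04), followed by Ire1 probe set 1641293_at with 0.68 (-0.12 to 1.47) and Ero1L with 0.67 (-0.08 to 1.43). For Cnx99A, called in both organs, it was 0.21 (-0.23 to 0.64), and for Srp14 0.43 (-0.05 to 0.92). Without wild-type spermathecae array 2, 2 probe sets passed, Ero1L by 1.07 (adjusted p 0.0414) and Ire1 1641293_at by 1.11 (0.0406), both higher in mutant spermathecae relative to the lower tract. The calls of CaBP1, Ero1L and Srp68 in spermathecae, and of zetaCOP in the lower tract, were therefore not shown to differ from those genes' values in the other organ.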

How the data were processed

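The deposited table holds 1 intensity value per probe set and array (linear). The submitters' processing notes name MAS5 for these values, with no version. The mean after dropping the lowest and highest 2% of values was 150 on all 8 arrays. Detection calls were not used here, and arrays have no read depth, so their number limits precision. Genes were named from the platform's probe annotation, and RefSeq served for synonyms. Values were taken to log2 after adding 4, and probe sets stayed in if some group had both arrays at or above their own median (10113 of 18769; 183 controls were left out). The fit used lmFit and eBayes (trend on) of limma 3.58.1 under R 4.3.3 and had 4 group means over 8 arrays and 4 residual degrees of freedom. Tests were two-sided, adjusted by Benjamini-Hochberg within each of 5 comparisons, and the script was tested on simulated data. Duplicate arrays of different groups did not deviate together from their group means (correlations of -0.032 to 0.026), and the main fit paired no arrays. That check cannot show whether arrays of different groups came from the same animals or were processed together. Array values are given for members called between genotypes and for the member of each step with the smallest adjusted p in a direction. The members and gene lists were chosen with earlier results of these data known. The 20 alternatives covered normalization, pseudocount, filter, variance, arrays fitted, probe sets and leaving out each array. Those for the other secretory pathway genes were chosen after seeing the data.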

Additional observations from a re-analysis of the deposited data

How the results depend on the processing

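Of the calls, 29 of 32 in the wild-type organ comparison, 31 of 33 in the mutant organ comparison, 1 of 4 between genotypes in spermathecae and 0 of 2 in the lower tract held under every alternative run for them, and 0 changed direction. The median of all probe sets shifted by 0.17 in the wild-type and 0.16 in the mutant organ comparison under median centring, and by 0.11 in the wild-type one under quantile normalization. The mutant organ median of the members was 1.89 under median centring and 1.85 without probe sets of shared probes, and the wild-type one was 1.78 and 1.74, and 1.56 to 1.68 with 1 array left out. The count lower in mutant spermathecae against mutant lower tract was 0 with quantile normalization, median centring, no filter or the stricter filter (which drops zetaCOP), and 0 to 1 with 1 array left out. Between genotypes in spermathecae, 2 members were higher with no filter, 1 with no variance trend, 1 with only the arrays compared, 2 without shared probes, and 1 to 7 with 1 array left out. There 0 to 1 were lower, and the median was 0.18 to 0.31. In the lower tract 1 was higher with no variance trend, 1 without shared probes and 0 to 4 with 1 array left out, and 1 was lower with only the arrays compared and 0 to 1 with 1 array left out. For the interaction 0 to 2 were higher. Of the other secretory pathway probe sets, 4, 2 and 5 were higher in mutant spermathecae with no filter, no variance trend and only the arrays compared, and 1 to 11 with 1 array left out. In mutant lower tract 2 were higher with no filter, 2 with no variance trend and 0 to 6 with 1 array left out, and 0 to 2 in the interaction. The cause of these changes was not tested, except that fewer probe sets or arrays enter some of them. With the replicate block (original against duplicate arrays) the medians were as in the fit without it, 1.73 and 1.61 between organs and 0.29 and 0.20 between genotypes. Signals near the array median, as for Pdi, limit what could be seen, and so do 2 arrays per group.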
